A study of Arabidopsis thaliana with 18 samples.

Results

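Of 22746 probe sets on an Arabidopsis thaliana array, 29 rose under low oxygen by amounts whose means lay within 0.5 log2 units of each other in wild type rosettes and in both transgenic lines. They were chosen from the mean deposited log2 level of each group. The level in WT air had to be at least 4, the change from air to hypoxia at least 1.5 in each of 3 genotypes, and the largest of the 3 changes at most 0.5 above the smallest. A log2 difference of 1 is a doubling. Probe sets with symbols starting UGT or PUB, and IAGLU, were left out, which removed 3 that met the limits: IAGLU, UGT73B1 and 1 shared by UGT73B2 and UGT73B3. The hypoxia changes and their likeness between genotypes are thus what the choice was made on, and they are described here without a test. The difference of a line from WT in level, averaged over both oxygen conditions, was not part of the choice, apart from the minimum for WT air. By that measure 263184_at and 266296_at stood lower in both lines than in WT in each of 27 alternatives. These leave out a minimum difference of 1, which 266296_at did not reach.

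Total RNA of whole 5-week-old rosettes of Columbia-0 was hybridised to 1 array per sample, with 3 arrays in each of 6 groups. One line carried 35S::HA::RAP2.12 (HA-RAP2.12 here), a tagged RAP2.12 under a viral promoter active in most cells. Another carried 35S::amiRAP2.2-12 (amiRAP2.2-12), an artificial microRNA named for RAP2.2 and RAP2.12 under the same promoter, and the third genotype was wild type (WT). Plants of each genotype spent 1.5 h in the dark at 22 °C, at 1% oxygen (hypoxia) or 21% oxygen (air), so the air plants had the same dark period as the hypoxic ones. They had grown with 8 h of light and 16 h of darkness. The labels do not say how many independent transformants stand behind a line, whether plants were pooled or whether replicates were separate plants, so p-values measure only the spread between these samples. In bulk tissue, fewer cells of a type and less RNA per cell cannot be told apart. RAP2.12 and RAP2.2 had no named probe set, and their levels were not analysed here. The leaf genes RCA, SBPASE and PRK averaged 15.01 ± 0.038, 13.43 ± 0.068 and 13.63 ± 0.082 in WT air (SD, n = 3). Of 4 measured root markers, 3 were near the lowest value on the arrays, 2.11. PYK10, the remaining one, stood at 6.86 ± 1.57, 6.27 ± 2.22 and 8.66 ± 0.094 under hypoxia in HA-RAP2.12, amiRAP2.2-12 and WT, against 7.81 ± 0.077, 8.26 ± 0.50 and 7.89 ± 0.050 in air, and its part in the results was not tested.

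RAP2.12 and RAP2.2 belong to group VII of the ethylene response factors. In air these proteins are marked for destruction through their N-terminal cysteine, an oxidation step that needs oxygen. When oxygen falls they persist, enter the nucleus and activate genes of fermentation and low-oxygen survival. Low oxygen also stops mitochondrial ATP production and brings calcium, reactive oxygen and protein-folding responses, so not every gene that rises need be a target of group VII factors.

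Of the 29 probe sets, 11 named 1 gene and 18 were not listed in the annotation used here. None had an identifier ending in _s_at or _x_at, the array maker's marks for probes that can match several genes. The 29 came from 120 probe sets that met the limits on level and on the size of the rise, in which the largest and the smallest change differed by a median of 0.89 and by up to 4.84. In the 29 this gap ran from 0.0070 to 0.49 (median 0.36), and in 9 it was under 0.25. Just inside the limit lay 254077_at (gap 0.49), AER (0.48) and IQD23 (0.46), and just outside it 250781_at (0.52), 258336_at (0.54) and 266155_at (0.54). At the limit of 1.5 on the smallest change, 245686_at (1.53), 263653_at (1.57) and 255280_at (1.57) were inside, while AT1G14200 (1.49), AT1G72800 (1.49) and AT1G05340 (1.48) were outside. The plot of gap against wild type change shows the 29 as the lower edge of the 120 and not as a separate cloud.

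**Figure D1:**
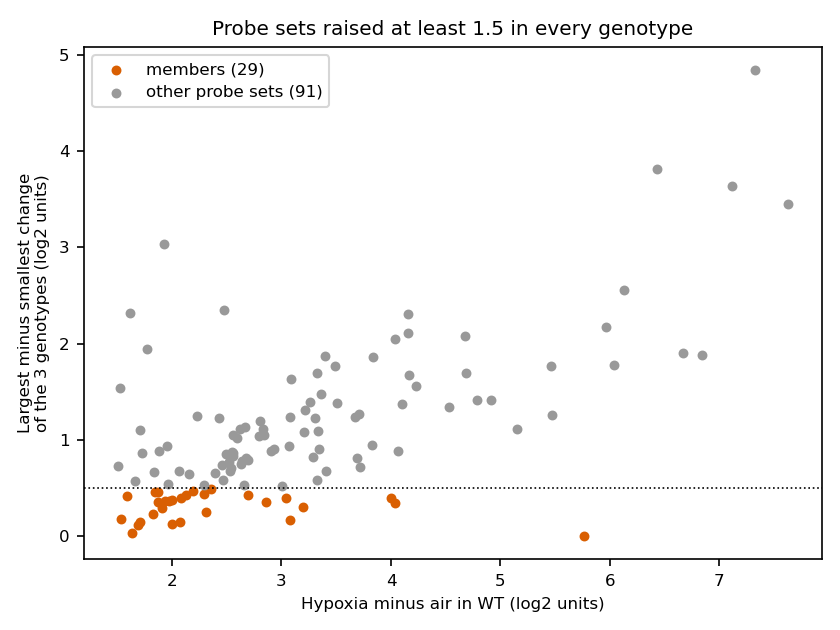
Each point is 1 of the 120 probe sets raised at least 1.5 in every genotype, with its change in WT on the x axis and the gap between the largest and smallest of the 3 changes on the y axis, both in log2 units. The 29 chosen probe sets lie at or under the dotted limit of 0.5, and the other 91 reach 4.84.

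The rises were moderate for most of the 29. Their changes ran from 1.57 to 5.77 in HA-RAP2.12 (median 2.22), from 1.55 to 5.77 in amiRAP2.2-12 (median 1.98) and from 1.53 to 5.77 in WT (median 2.07). In 15 of the 29 the largest change was that of HA-RAP2.12, in 6 that of amiRAP2.2-12 and in 8 that of WT. The smallest was that of HA-RAP2.12 in 8, of amiRAP2.2-12 in 12 and of WT in 9. Likeness of means is not equality: the difference between 2 genotypes' changes had a standard error (SE) of 0.13 to 0.44 (median 0.26). Its 95% interval lay wholly within 0.5 either way in 4 of 29 for HA-RAP2.12 against WT, in 1 for amiRAP2.2-12 against WT and in 4 for HA-RAP2.12 against amiRAP2.2-12. Within 1 either way it lay in 24, 26 and 25 of 29 for these pairs. In 5 of the 29 an unadjusted 95% interval left out 0, in 7 of 87 intervals: 254077_at for HA-RAP2.12 against WT, 256453_at for each line against WT, AER for amiRAP2.2-12 against WT and against HA-RAP2.12, and IQD23 and 266296_at between the lines.

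**Figure D2:**
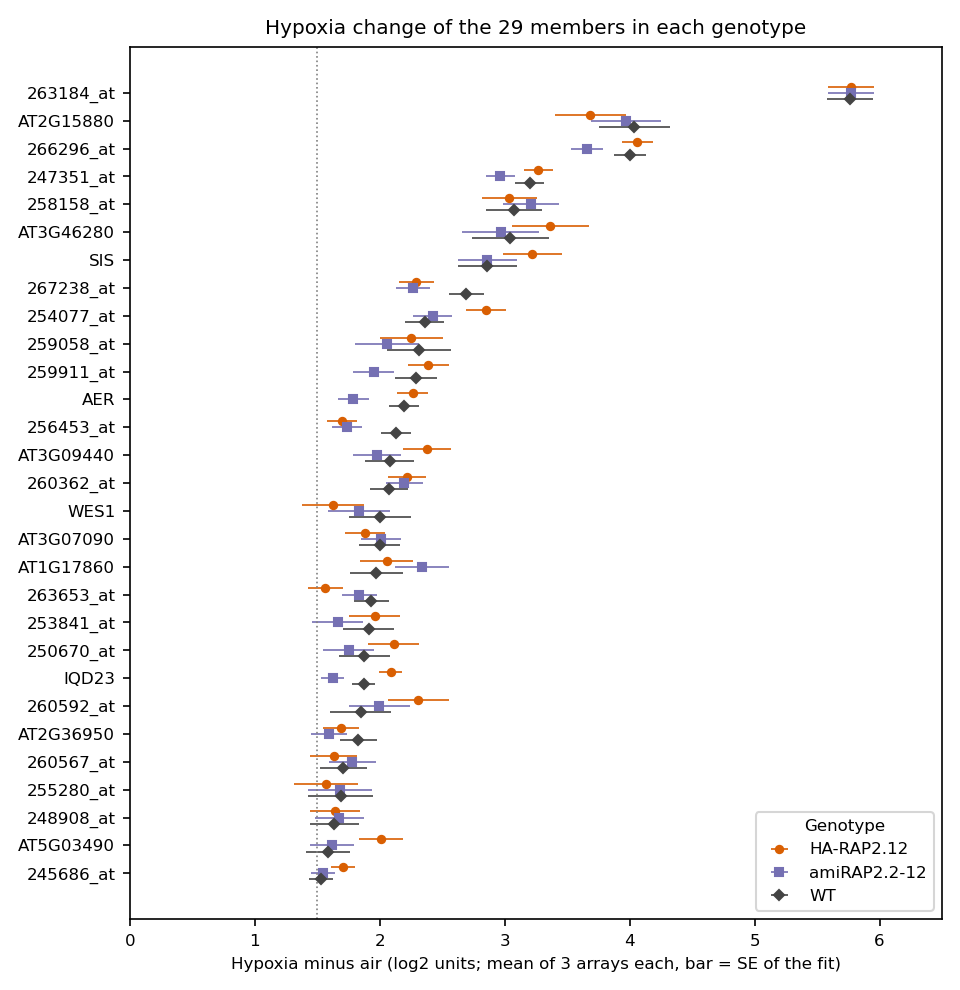
Hypoxia minus air in log2 units (x axis) for each of the 29 probe sets (y axis, by gene where named and otherwise by probe set identifier), with 3 arrays per group and bars for the SE of the fit. The dotted line marks the limit of 1.5; the 3 genotypes of a row stay within 0.49 of each other, and 263184_at stands highest with about 5.77 in each.

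The measure that the choice did not use, apart from the minimum for WT air, is the level itself. The difference between a line and WT, averaged over hypoxia and air, is orthogonal to the changes that chose the 29, since each group has 3 arrays. The minimum for WT air touches it only near 4, where 1 of the 29 lies (AT3G46280 at 4.03). The limit on the gap keeps a line's difference from WT in air within 0.5 of that under hypoxia. Likeness of these 2 differences was thus part of the choice. By limma with Benjamini-Hochberg adjustment over 22746 probe sets and a threshold of 0.05, 8 of the 29 were lower in HA-RAP2.12 than in WT and none was higher, where 1.73% of all probe sets were lower and 0.783% higher. In amiRAP2.2-12, 5 of 29 were lower than in WT and none was higher, against 0.365% of all probe sets that were lower and 0.211% that were higher. The median difference was -0.19 in HA-RAP2.12 and -0.24 in amiRAP2.2-12, where the median over all probe sets was 0 in both, and 24 and 26 of the 29 lay below WT (82.8% and 89.7%), against 42.3% and 40.9% of all probe sets. A nearer background is the 13254 probe sets with a WT air mean of at least 4. Of these, 53.0% lay below WT in HA-RAP2.12 and 50.9% in amiRAP2.2-12, and 2.80% and 0.490% were called lower. Of the other 91 induced probe sets, with larger gaps, 9 were lower and 3 higher in HA-RAP2.12 (median -0.27), and 7 were lower in amiRAP2.2-12 (median -0.49), with 72.5% and 90.1% of the 91 below WT. Under hypoxia the median SD between replicates was 0.22 in the 91 against 0.15 in the 29 in HA-RAP2.12. It was 0.61 against 0.23 in amiRAP2.2-12 and 0.10 against 0.11 in WT. The counts called in the 91 and in the 29 thus differ in precision and are not a like comparison. Between the lines, HA-RAP2.12 minus amiRAP2.2-12, 0 of 29 passed in limma (4 at an unadjusted p under 0.05, smallest adjusted p 0.094), where 0.743% of all probe sets did, 0.312% higher and 0.431% lower. At an unadjusted p under 0.05, 1 of 29 was higher and 11 were lower in HA-RAP2.12 than in WT, and 0 were higher and 14 lower in amiRAP2.2-12. Of all 22746 probe sets, 1329 were higher and 2068 lower in HA-RAP2.12 by that p, while amiRAP2.2-12 had 1140 higher and 1283 lower. The comparisons with WT share the 6 WT arrays.

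Single arrays weighed on these counts. The count of 8 in HA-RAP2.12 became 4 without WT air array 2, WT hypoxia array 3 or HA-RAP2.12 hypoxia array 3, and 5 without WT air array 3, WT hypoxia array 1, HA-RAP2.12 air array 2 or 3 or HA-RAP2.12 hypoxia array 2. The count of 5 in amiRAP2.2-12 became 2 without WT air array 3, and 3 without WT air array 2, WT hypoxia array 1 or 2, amiRAP2.2-12 air array 2 or amiRAP2.2-12 hypoxia array 3, and 8 without amiRAP2.2-12 air array 3. With limma's arrayWeights 12 and 11 were lower, and with only the arrays compared 10 and 2. Air and hypoxia arrays of 1 genotype and number deviated together, with r of 0.018 to 0.46 in 9 pairs over 13225 probe sets, 6 of them over 0.1. With genotype and number as a random block (limma's duplicateCorrelation, 0.10), an alternative added after the data were seen, 6 of the 29 were lower in HA-RAP2.12 and 4 in amiRAP2.2-12. AER (adjusted p = 0.0758) and 247351_at (adjusted p = 0.0519) were then not called in HA-RAP2.12, nor AT1G17860 (adjusted p = 0.0523) in amiRAP2.2-12.

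**Figure D3:**
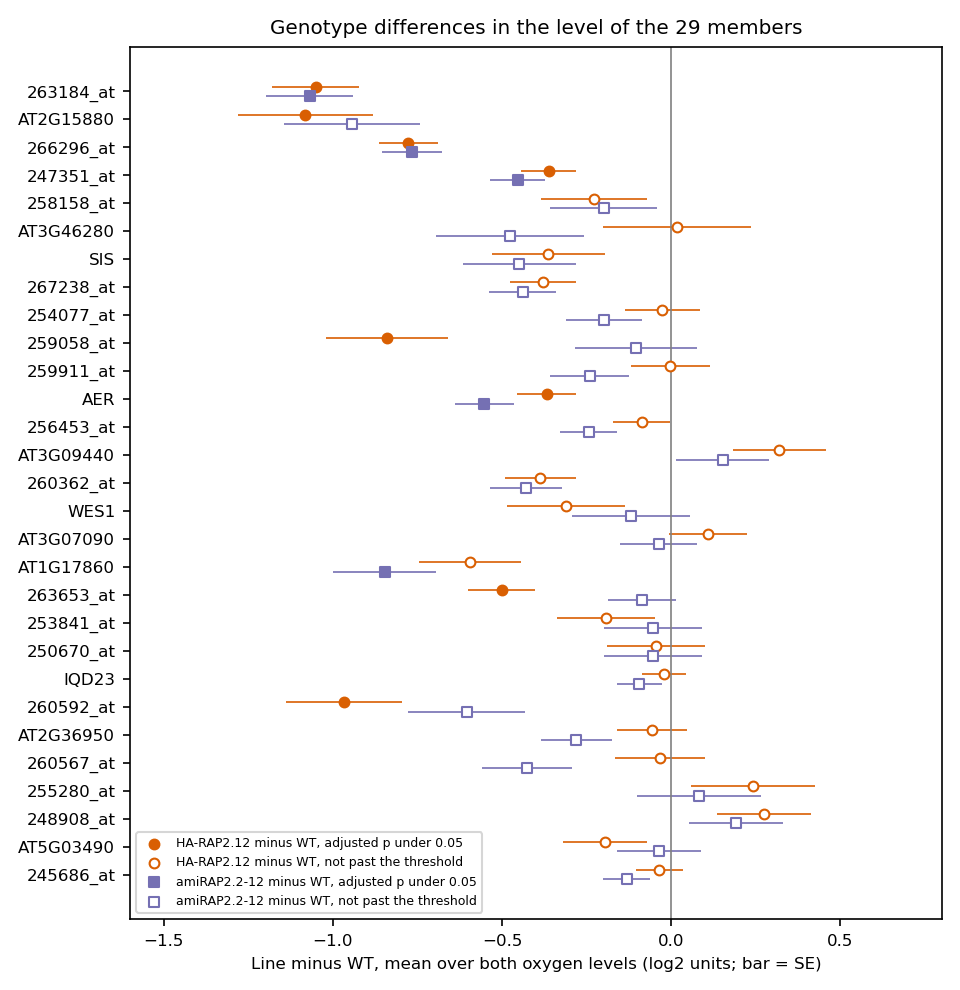
Difference of each line from WT, averaged over both oxygen levels, in log2 units (x axis) for the 29 probe sets (y axis, in the order of their WT change), with bars for the SE of the fit to 18 arrays. Filled symbols passed adjusted p under 0.05 and open ones did not; the 8 filled circles of HA-RAP2.12 and 5 filled squares of amiRAP2.2-12 all lie left of 0.

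The strongest of the 29, 263184_at, is an unnamed probe set singled out after its values were seen. 263184_at read 11.46, 11.39 and 11.29 under hypoxia in HA-RAP2.12, against 5.79, 5.46 and 5.58 in air. For 263184_at, amiRAP2.2-12 gave 11.35, 11.13 and 11.61 under hypoxia, against 5.22, 5.65 and 5.90 in air. In WT, 263184_at stood at 12.38, 12.65 and 12.25 under hypoxia, against 6.84, 6.76 and 6.39 in air. Hypoxia raised it by 5.77 in HA-RAP2.12, 5.77 in amiRAP2.2-12 and 5.77 in WT. The gap of 0.0070 between these means was the smallest of the 29, on a measure used for the choice. It is far finer than the arrays resolve. The difference between 2 of the changes had an SE of 0.26, and for HA-RAP2.12 against WT its 95% interval ran from -0.56 to 0.57. For 263184_at, every array of both lines lay below every WT array at the same oxygen level. 263184_at differed from WT by -1.05 ± 0.13 (SE) in HA-RAP2.12 over both oxygen levels, with a limma adjusted p = 0.00243, while amiRAP2.2-12 differed by -1.07 ± 0.13 (SE), with an adjusted p = 0.00403. Both lines stood lower than WT under hypoxia and in air alike. With averaged differences of this size, the limit on the gap made that agreement necessary. It is thus not a separate result. All 27 alternatives kept both calls, with differences of -1.14 to -1.0 and -1.15 to -0.98.

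AT2G15880 encodes a leucine-rich repeat extensin-like protein, a class of cell wall proteins, and is the only one of the 29 on the list of low-oxygen genes used here. AT2G15880 read 9.15, 8.65 and 8.38 under hypoxia in HA-RAP2.12, against 5.47, 4.56 and 5.09 in air. For AT2G15880, amiRAP2.2-12 gave 9.25, 9.04 and 8.73 under hypoxia, against 4.81, 4.74 and 5.55 in air. In WT, AT2G15880 stood at 10.27, 9.82 and 9.86 under hypoxia, against 5.94, 5.72 and 6.19 in air. Its changes were 3.68 in HA-RAP2.12, 3.97 in amiRAP2.2-12 and 4.04 in WT. For AT2G15880, every array of both lines lay below every WT array at the same oxygen level. AT2G15880 differed from WT by -1.08 ± 0.20 (SE) in HA-RAP2.12 over both oxygen levels, with a limma adjusted p = 0.0151, while amiRAP2.2-12 differed by -0.94 ± 0.20 (SE), with an adjusted p = 0.0632. The HA-RAP2.12 call held in all 27 alternatives. AT2G15880 passed in amiRAP2.2-12 without amiRAP2.2-12 air array 3 or amiRAP2.2-12 hypoxia array 1 (differences of -1.07 to -1.0, adjusted p down to 0.0201), and with dim probe sets filtered out (adjusted p = 0.0207) and arrayWeights (adjusted p = 0.00774).

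AT3G46280, a kinase-related gene, lay nearest the minimum of 4 for WT air. AT3G46280 read 7.83, 6.84 and 7.09 under hypoxia in HA-RAP2.12, against 4.50, 3.64 and 3.53 in air. For AT3G46280, amiRAP2.2-12 gave 6.59, 6.48 and 6.62 under hypoxia, against 3.17, 4.23 and 3.38 in air. In WT, AT3G46280 stood at 6.91, 7.13 and 7.19 under hypoxia, against 4.03, 4.05 and 4.01 in air. For AT3G46280, all 3 arrays lay below all 3 WT arrays in amiRAP2.2-12 under hypoxia, and the arrays overlapped those of WT in HA-RAP2.12 at both oxygen levels and amiRAP2.2-12 in air. AT3G46280 differed from WT by 0.017 ± 0.22 (SE) in HA-RAP2.12 over both oxygen levels, with a limma adjusted p = 1.00, while amiRAP2.2-12 differed by -0.48 ± 0.22 (SE), with an adjusted p = 0.465. The 95% interval of the difference between the HA-RAP2.12 and WT changes ran from -0.63 to 1.27.

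3 of the named genes encode enzymes that modify small molecules. AER is an alkenal reductase, which reduces reactive carbonyls formed from oxidised lipids. AER read 9.45, 9.73 and 9.63 under hypoxia in HA-RAP2.12, against 7.44, 7.25 and 7.32 in air. For AER, amiRAP2.2-12 gave 9.03, 9.46 and 9.06 under hypoxia, against 7.46, 7.26 and 7.45 in air. In WT, AER stood at 10.13, 9.77 and 9.91 under hypoxia, against 7.67, 7.70 and 7.85 in air. For AER, every array of both lines lay below every WT array at the same oxygen level. AER differed from WT by -0.37 ± 0.087 (SE) in HA-RAP2.12 over both oxygen levels, with a limma adjusted p = 0.0460, while amiRAP2.2-12 differed by -0.55 ± 0.087 (SE), with an adjusted p = 0.0181. The AER call in HA-RAP2.12 was lost without WT air array 1, 2 or 3, WT hypoxia array 1 or 3, HA-RAP2.12 air array 2 or 3, HA-RAP2.12 hypoxia array 1, 2 or 3 or amiRAP2.2-12 air array 1, 2 or 3 (differences of -0.40 to -0.32, adjusted p up to 0.115), and with quantile normalization (adjusted p = 0.0568) and median centring (adjusted p = 0.0520). The AER call in amiRAP2.2-12 was lost without WT air array 3 (a difference of -0.53, adjusted p = 0.0538), and with only the arrays compared (adjusted p = 0.0666).

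WES1, also called GH3.5, joins auxin to amino acids. WES1 read 9.90, 10.15 and 9.86 under hypoxia in HA-RAP2.12, against 7.90, 8.78 and 8.35 in air. For WES1, amiRAP2.2-12 gave 10.66, 9.99 and 10.16 under hypoxia, against 8.89, 7.97 and 8.45 in air. In WT, WES1 stood at 10.35, 10.49 and 10.57 under hypoxia, against 8.50, 8.45 and 8.46 in air. For WES1, all 3 arrays lay below all 3 WT arrays in HA-RAP2.12 under hypoxia, and the arrays overlapped those of WT in HA-RAP2.12 in air and amiRAP2.2-12 at both oxygen levels. WES1 differed from WT by -0.31 ± 0.17 (SE) in HA-RAP2.12 over both oxygen levels, with a limma adjusted p = 0.469, while amiRAP2.2-12 differed by -0.12 ± 0.17 (SE), with an adjusted p = 0.959. AT5G03490 encodes a UDP-glycosyltransferase and remained because its symbol is its locus. AT5G03490 read 9.01, 8.54 and 8.67 under hypoxia in HA-RAP2.12, against 6.78, 6.75 and 6.67 in air. For AT5G03490, amiRAP2.2-12 gave 8.32, 9.19 and 8.61 under hypoxia, against 7.03, 7.16 and 7.07 in air. In WT, AT5G03490 stood at 8.55, 8.79 and 8.84 under hypoxia, against 7.08, 7.15 and 7.19 in air. For AT5G03490, all 3 arrays lay below all 3 WT arrays in HA-RAP2.12 in air, and the arrays overlapped those of WT in HA-RAP2.12 under hypoxia and amiRAP2.2-12 at both oxygen levels. AT5G03490 differed from WT by -0.19 ± 0.12 (SE) in HA-RAP2.12 over both oxygen levels, with a limma adjusted p = 0.559, while amiRAP2.2-12 differed by -0.035 ± 0.12 (SE), with an adjusted p = 1.00. Neither gene passed in either line in any of the 27 alternatives.

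Protein folding and breakdown were represented by 3 genes. AT3G09440 encodes a cytosolic HSP70 chaperone. AT3G09440 read 11.34, 10.88 and 10.61 under hypoxia in HA-RAP2.12, against 8.73, 8.40 and 8.58 in air. For AT3G09440, amiRAP2.2-12 gave 10.56, 10.63 and 10.56 under hypoxia, against 8.87, 8.82 and 8.12 in air. In WT, AT3G09440 stood at 10.53, 10.44 and 10.46 under hypoxia, against 8.50, 8.31 and 8.38 in air. For AT3G09440, all 3 arrays lay above all 3 WT arrays in both lines under hypoxia, and the arrays overlapped those of WT in both lines in air. AT3G09440 differed from WT by 0.32 ± 0.14 (SE) in HA-RAP2.12 over both oxygen levels, with a limma adjusted p = 0.295, while amiRAP2.2-12 differed by 0.15 ± 0.14 (SE), with an adjusted p = 0.785. It lay on the higher side of WT in both lines, without a call in any of the 27 alternatives. AT1G17860 encodes an inhibitor of the Kunitz trypsin inhibitor family. AT1G17860 read 9.97, 9.98 and 10.06 under hypoxia in HA-RAP2.12, against 8.14, 7.93 and 7.77 in air. For AT1G17860, amiRAP2.2-12 gave 9.55, 10.38 and 9.75 under hypoxia, against 7.93, 7.56 and 7.17 in air. In WT, AT1G17860 stood at 10.56, 10.71 and 10.40 under hypoxia, against 8.52, 8.43 and 8.80 in air. For AT1G17860, every array of both lines lay below every WT array at the same oxygen level. AT1G17860 differed from WT by -0.60 ± 0.15 (SE) in HA-RAP2.12 over both oxygen levels, with a limma adjusted p = 0.0613, while amiRAP2.2-12 differed by -0.85 ± 0.15 (SE), with an adjusted p = 0.0311. The AT1G17860 call in amiRAP2.2-12 was lost without WT air array 1, 2 or 3, WT hypoxia array 1 or 2, HA-RAP2.12 hypoxia array 3, amiRAP2.2-12 air array 2 or amiRAP2.2-12 hypoxia array 3 (differences of -0.89 to -0.79, adjusted p up to 0.0870), and with only the arrays compared (adjusted p = 0.120). AT1G17860 passed in HA-RAP2.12 without amiRAP2.2-12 air array 1 or 3 or amiRAP2.2-12 hypoxia array 1 or 2 (a difference of -0.60, adjusted p down to 0.0195), and with dim probe sets filtered out (adjusted p = 0.0282), arrayWeights (adjusted p = 0.00191) and only the arrays compared (adjusted p = 0.00946).

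AT3G07090 encodes a putative thiol peptidase of the PPPDE family. AT3G07090 read 10.24, 9.88 and 9.73 under hypoxia in HA-RAP2.12, against 7.95, 8.27 and 7.99 in air. For AT3G07090, amiRAP2.2-12 gave 9.82, 10.00 and 9.78 under hypoxia, against 8.03, 8.04 and 7.51 in air. In WT, AT3G07090 stood at 10.00, 9.88 and 9.82 under hypoxia, against 7.86, 7.75 and 8.10 in air. For AT3G07090, the arrays of both lines overlapped those of WT at both oxygen levels. AT3G07090 differed from WT by 0.11 ± 0.11 (SE) in HA-RAP2.12 over both oxygen levels, with a limma adjusted p = 0.772, while amiRAP2.2-12 differed by -0.038 ± 0.11 (SE), with an adjusted p = 1.00. Its changes of 1.88 in HA-RAP2.12, 2.01 in amiRAP2.2-12 and 2.00 in WT gave a gap of 0.13, the smallest of the 11 named genes.

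**Figure D4:**
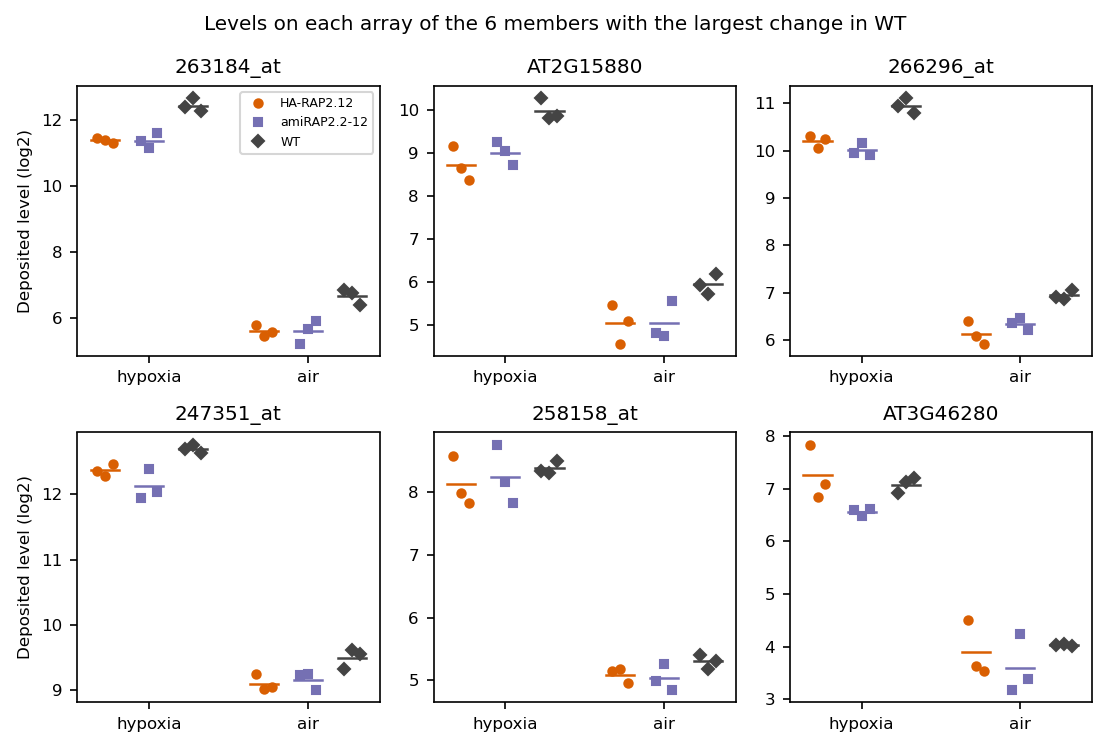
Deposited log2 level (y axis) on each of the 18 arrays for 6 of the 29 probe sets, the ones with the largest change in WT, with hypoxia left of air and a line at the mean of 3 arrays. In 263184_at, AT2G15880, 266296_at and 247351_at, every array of both lines lies below every WT array at the same oxygen level. The share of all probe sets separated in this way was not counted.

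The remaining named genes lack a shared role. SIS encodes a serine-rich protein and is named for its induction by salt. SIS read 12.82, 12.58 and 12.52 under hypoxia in HA-RAP2.12, against 10.10, 9.19 and 8.97 in air. For SIS, amiRAP2.2-12 gave 12.36, 12.61 and 12.16 under hypoxia, against 9.85, 9.29 and 9.40 in air. In WT, SIS stood at 12.83, 12.77 and 12.87 under hypoxia, against 9.95, 10.00 and 9.93 in air. For SIS, all 3 arrays lay below all 3 WT arrays in amiRAP2.2-12 at both oxygen levels, and the arrays overlapped those of WT in HA-RAP2.12 at both oxygen levels. SIS differed from WT by -0.36 ± 0.17 (SE) in HA-RAP2.12 over both oxygen levels, with a limma adjusted p = 0.335, while amiRAP2.2-12 differed by -0.45 ± 0.17 (SE), with an adjusted p = 0.327. SIS passed in HA-RAP2.12 without HA-RAP2.12 air array 1 (a difference of -0.53, adjusted p = 0.0266), and with arrayWeights (adjusted p = 0.0395). SIS passed in amiRAP2.2-12 with arrayWeights (adjusted p = 0.0304). Replicate 1 of HA-RAP2.12 in air was the highest array of that group.

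IQD23 belongs to the IQ67-domain family, which binds calmodulin. IQD23 read 8.08, 7.99 and 8.23 under hypoxia in HA-RAP2.12, against 5.96, 6.00 and 6.07 in air. For IQD23, amiRAP2.2-12 gave 7.91, 7.90 and 7.57 under hypoxia, against 6.18, 6.16 and 6.18 in air. In WT, IQD23 stood at 7.97, 8.12 and 7.95 under hypoxia, against 6.27, 6.00 and 6.15 in air. For IQD23, all 3 arrays lay below all 3 WT arrays in amiRAP2.2-12 under hypoxia, and the arrays overlapped those of WT in HA-RAP2.12 at both oxygen levels and amiRAP2.2-12 in air. IQD23 differed from WT by -0.022 ± 0.066 (SE) in HA-RAP2.12 over both oxygen levels, with a limma adjusted p = 1.00, while amiRAP2.2-12 differed by -0.095 ± 0.066 (SE), with an adjusted p = 0.766. Its gap of 0.46 came from the lines, with changes of 2.09 in HA-RAP2.12, 1.62 in amiRAP2.2-12 and 1.87 in WT. AT2G36950 encodes a protein with a heavy-metal-associated domain. AT2G36950 read 9.92, 10.23 and 10.03 under hypoxia in HA-RAP2.12, against 8.19, 8.43 and 8.49 in air. For AT2G36950, amiRAP2.2-12 gave 10.01, 9.41 and 9.94 under hypoxia, against 8.31, 8.05 and 8.22 in air. In WT, AT2G36950 stood at 10.33, 10.04 and 10.19 under hypoxia, against 8.32, 8.45 and 8.31 in air. For AT2G36950, all 3 arrays lay below all 3 WT arrays in amiRAP2.2-12 under hypoxia, and the arrays overlapped those of WT in HA-RAP2.12 at both oxygen levels and amiRAP2.2-12 in air. AT2G36950 differed from WT by -0.057 ± 0.10 (SE) in HA-RAP2.12 over both oxygen levels, with a limma adjusted p = 0.978, while amiRAP2.2-12 differed by -0.28 ± 0.10 (SE), with an adjusted p = 0.322. Neither passed in either line in any of the 27 alternatives.

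Among the 18 unnamed probe sets, 6 were lower in HA-RAP2.12 and 3 in amiRAP2.2-12, where 1.73% and 0.365% of all probe sets were, and those past the threshold are given by identifier after their values were seen. 266296_at read 10.30, 10.05 and 10.23 under hypoxia in HA-RAP2.12, against 6.39, 6.08 and 5.92 in air. For 266296_at, amiRAP2.2-12 gave 9.95, 10.16 and 9.90 under hypoxia, against 6.35, 6.47 and 6.21 in air. In WT, 266296_at stood at 10.93, 11.10 and 10.79 under hypoxia, against 6.90, 6.86 and 7.05 in air. For 266296_at, every array of both lines lay below every WT array at the same oxygen level. 266296_at differed from WT by -0.78 ± 0.088 (SE) in HA-RAP2.12 over both oxygen levels, with a limma adjusted p = 0.00197, while amiRAP2.2-12 differed by -0.77 ± 0.088 (SE), with an adjusted p = 0.00375. Both calls held in all 27 alternatives, which leave out the minimum difference of 1, reached in neither line. 260592_at read 10.12, 9.47 and 9.73 under hypoxia in HA-RAP2.12, against 7.44, 7.77 and 7.19 in air. For 260592_at, amiRAP2.2-12 gave 10.07, 10.06 and 9.82 under hypoxia, against 7.39, 8.04 and 8.52 in air. In WT, 260592_at stood at 10.40, 10.51 and 10.63 under hypoxia, against 8.74, 8.63 and 8.63 in air. For 260592_at, every array of both lines lay below every WT array at the same oxygen level. 260592_at differed from WT by -0.97 ± 0.17 (SE) in HA-RAP2.12 over both oxygen levels, with a limma adjusted p = 0.0129, while amiRAP2.2-12 differed by -0.60 ± 0.17 (SE), with an adjusted p = 0.159. The HA-RAP2.12 call held in all 27 alternatives, though its difference did not reach 1. 260592_at passed in amiRAP2.2-12 without amiRAP2.2-12 air array 3 (a difference of -0.74, adjusted p = 0.0352), and with arrayWeights (adjusted p = 0.0191).

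247351_at read 12.36, 12.28 and 12.46 under hypoxia in HA-RAP2.12, against 9.24, 9.01 and 9.04 in air. For 247351_at, amiRAP2.2-12 gave 11.95, 12.38 and 12.04 under hypoxia, against 9.24, 9.25 and 9.00 in air. In WT, 247351_at stood at 12.69, 12.76 and 12.64 under hypoxia, against 9.32, 9.62 and 9.55 in air. For 247351_at, every array of both lines lay below every WT array at the same oxygen level. 247351_at differed from WT by -0.36 ± 0.081 (SE) in HA-RAP2.12 over both oxygen levels, with a limma adjusted p = 0.0365, while amiRAP2.2-12 differed by -0.45 ± 0.081 (SE), with an adjusted p = 0.0311. The 247351_at call in HA-RAP2.12 was lost without WT air array 2 or 3, WT hypoxia array 1, 2 or 3, HA-RAP2.12 air array 2 or 3 or HA-RAP2.12 hypoxia array 1, 2 or 3 (differences of -0.39 to -0.33, adjusted p up to 0.0925). The 247351_at call in amiRAP2.2-12 was lost without WT air array 2 or 3, WT hypoxia array 1, 2 or 3, amiRAP2.2-12 air array 2 or amiRAP2.2-12 hypoxia array 3 (differences of -0.47 to -0.42, adjusted p up to 0.0870), and with only the arrays compared (adjusted p = 0.0965).

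259058_at read 9.77, 9.08 and 9.39 under hypoxia in HA-RAP2.12, against 7.43, 7.41 and 6.64 in air. For 259058_at, amiRAP2.2-12 gave 9.91, 10.46 and 9.78 under hypoxia, against 7.76, 8.44 and 7.77 in air. In WT, 259058_at stood at 10.24, 10.35 and 10.26 under hypoxia, against 8.05, 7.89 and 7.97 in air. For 259058_at, all 3 arrays lay below all 3 WT arrays in HA-RAP2.12 at both oxygen levels, and the arrays overlapped those of WT in amiRAP2.2-12 at both oxygen levels. 259058_at differed from WT by -0.84 ± 0.18 (SE) in HA-RAP2.12 over both oxygen levels, with a limma adjusted p = 0.0305, while amiRAP2.2-12 differed by -0.10 ± 0.18 (SE), with an adjusted p = 1.00. The 259058_at call in HA-RAP2.12 was lost without WT air array 1, 2 or 3, WT hypoxia array 1, 2 or 3, HA-RAP2.12 air array 3 or HA-RAP2.12 hypoxia array 2 or 3 (differences of -0.86 to -0.71, adjusted p up to 0.0763). 263653_at read 8.66, 8.69 and 8.51 under hypoxia in HA-RAP2.12, against 6.85, 6.98 and 7.34 in air. For 263653_at, amiRAP2.2-12 gave 9.22, 9.01 and 9.28 under hypoxia, against 7.15, 7.21 and 7.65 in air. In WT, 263653_at stood at 9.35, 9.18 and 9.38 under hypoxia, against 7.33, 7.45 and 7.34 in air. For 263653_at, all 3 arrays lay below all 3 WT arrays in HA-RAP2.12 under hypoxia, and the arrays overlapped those of WT in HA-RAP2.12 in air and amiRAP2.2-12 at both oxygen levels. 263653_at differed from WT by -0.50 ± 0.10 (SE) in HA-RAP2.12 over both oxygen levels, with a limma adjusted p = 0.0213, while amiRAP2.2-12 differed by -0.087 ± 0.10 (SE), with an adjusted p = 0.878. The 263653_at call in HA-RAP2.12 was lost without WT air array 2, WT hypoxia array 3, HA-RAP2.12 air array 2 or HA-RAP2.12 hypoxia array 3 (differences of -0.48 to -0.47, adjusted p up to 0.0619). For both probe sets the difference between the lines did not pass (adjusted p = 0.0982 and 0.0940).

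The other 12 unnamed probe sets passed in neither line. 258158_at rose by 3.04 in HA-RAP2.12, 3.21 in amiRAP2.2-12 and 3.08 in WT, and stood at 8.38 ± 0.10 under hypoxia and 5.30 ± 0.11 in air in WT (SD, n = 3). 248908_at had changes of 1.64 in HA-RAP2.12, 1.68 in amiRAP2.2-12 and 1.64 in WT, a gap of 0.040. It stood above WT by 0.27 ± 0.14 in HA-RAP2.12 and by 0.19 ± 0.14 in amiRAP2.2-12 (SE). Both probe sets are mentioned after their values were seen, and neither difference of 248908_at passed (adjusted p = 0.405 and 0.766).

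Replicates of the 29 had a higher median SD in both lines than in WT, a difference that was not tested. It was 0.15 under hypoxia and 0.18 in air in HA-RAP2.12, 0.23 and 0.30 in amiRAP2.2-12, and 0.11 and 0.11 in WT. Both lines also stood above WT for 13225 other probe sets with a WT air mean of at least 4, with 0.13 under hypoxia and 0.15 in air in HA-RAP2.12, 0.23 and 0.16 in amiRAP2.2-12, and 0.12 and 0.11 in WT. The 91 other induced probe sets had a median SD of 0.61 under hypoxia and 0.31 in air in amiRAP2.2-12. The amiRAP2.2-12 hypoxia replicate 2 array had the lowest weight of the 18 (0.13). On it the 29 lay a median of 0.077 above their group mean, against -0.0082 for the 91. On amiRAP2.2-12 hypoxia replicates 1 and 3 the medians were 0.42 and -0.30 for the 91, and -0.023 and -0.087 for the 29. In HA-RAP2.12, replicate 1 was the high array, by a median of 0.14 under hypoxia and 0.14 in air. Without amiRAP2.2-12 hypoxia replicate 2 the limits gave 26 probe sets, of which 24 were among the 29.

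Of 51 loci listed as known low-oxygen genes, 24 had a named probe set, and 20 were higher under hypoxia in HA-RAP2.12, 20 in amiRAP2.2-12 and 24 in WT, with none lower. Of all probe sets, 10.4%, 8.04% and 11.5% were higher and 8.95%, 8.27% and 10.3% lower in these genotypes. Their median changes were 2.70, 2.95 and 4.17, and the median over all probe sets was 0 in each genotype. Of the 24, 7 met the limits on level and size of the rise and 1 of those, AT2G15880, met the limit on the gap, as 24.2% of the 120 did. By the gap alone 3 of the 24 did, with AT4G17260 (0.42) and AT3G10020 (0.17), named after their values were seen. The share of all probe sets within the gap limit alone is not given here, so this count cannot be read as few or many. AT1G33055 had the largest gap of the other 6, 3.64, with changes of 3.48 in HA-RAP2.12, 6.68 in amiRAP2.2-12 and 7.12 in WT. CML38, a calmodulin-like protein gene, had the smallest, 0.68, with 2.53 in HA-RAP2.12, 1.85 in amiRAP2.2-12 and 2.53 in WT. The genes with the largest WT change on the list started below 4 in WT air: AT4G10270 changed by 5.18 in HA-RAP2.12, 9.21 in amiRAP2.2-12 and 10.68 in WT, AT4G33560 by 6.26 in HA-RAP2.12, 7.37 in amiRAP2.2-12 and 9.03 in WT and AT2G17850 by 3.90 in HA-RAP2.12, 5.97 in amiRAP2.2-12 and 8.76 in WT. Their SDs under hypoxia in amiRAP2.2-12 were 0.68, 1.41 and 2.31 (n = 3). Averaged over oxygen levels, 4 of the 24 were higher and 3 lower in HA-RAP2.12 than in WT (median 0.099), and none passed by limma in amiRAP2.2-12 (18 at an unadjusted p under 0.05, median -0.86). Of all probe sets, 0.783% were higher and 1.73% lower in HA-RAP2.12, while amiRAP2.2-12 had 0.211% higher and 0.365% lower.

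No measured gene of the other lists was among the 29, and the lists of jasmonate genes and of seed, flower and senescence markers had no named probe set. The heat shock list of 31 loci does not hold AT3G09440, the HSP70 gene among the 29. Of 10 measured heat shock and co-chaperone genes, hypoxia left 4 higher and 0 lower in HA-RAP2.12, 5 and 0 in amiRAP2.2-12, and 7 and 0 in WT. Each count here is to be read against 10.4%, 8.04% and 11.5% of all probe sets higher, and 8.95%, 8.27% and 10.3% lower, in HA-RAP2.12, amiRAP2.2-12 and WT. For lists of 8 genes or fewer, counts of 0 or 1 lie within 1 gene of those shares. AT5G48570, a peptidyl-prolyl isomerase, changed by 4.26 in HA-RAP2.12, 4.53 in amiRAP2.2-12 and 6.04 in WT, AT2G29500, a small heat shock protein gene, by 3.27 in HA-RAP2.12, 2.62 in amiRAP2.2-12 and 7.09 in WT, and the co-chaperone gene Hop3 by 1.59 in HA-RAP2.12, 2.5 in amiRAP2.2-12 and 4.79 in WT, gaps of 1.78, 4.47 and 3.19. These 3 had the largest WT changes of their list. Under hypoxia in amiRAP2.2-12 their SDs were 1.03, 3.04 and 2.09 (n = 3). In air AT2G29500 and Hop3 averaged 2.39 to 2.92 in the 3 genotypes, near the lowest value. Of 5 stress transcription factors, the counts were 4 higher and 1 lower in HA-RAP2.12, 1 and 0 in amiRAP2.2-12, and 2 and 1 in WT, with WRKY6 at 2.39 in HA-RAP2.12, 1.52 in amiRAP2.2-12 and 1.72 in WT. For 8 calcium sensors and pumps they were 3 higher and 0 lower in HA-RAP2.12, 1 and 0 in amiRAP2.2-12, and 1 and 1 in WT. The 4 ethylene genes gave 1 higher and 0 lower in HA-RAP2.12, 2 and 0 in amiRAP2.2-12, and 2 and 0 in WT, and ARL, a gene of the ARGOS family that restrains ethylene signalling, changed by 1.39 in HA-RAP2.12, 1.36 in amiRAP2.2-12 and 2.13 in WT (gap 0.77). Among 6 dark and sugar starvation genes there were 0 higher and 2 lower in HA-RAP2.12, 0 and 3 in amiRAP2.2-12, and 1 and 1 in WT, and IVD, of leucine breakdown, changed by 0.47 in HA-RAP2.12, 0.50 in amiRAP2.2-12 and 0.83 in WT. The 5 mitochondrial dysfunction genes gave 1 higher and 0 lower in HA-RAP2.12, 0 and 0 in amiRAP2.2-12, and 0 and 1 in WT. Of the 2 abscisic acid and cold genes, COR47 passed in WT, with changes of 0.16 in HA-RAP2.12, 0.19 in amiRAP2.2-12 and 0.93 in WT, and the clock gene GI had changes of 0.087 in HA-RAP2.12, 0.027 in amiRAP2.2-12 and -0.029 in WT.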

How the data were processed

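Transcript levels were measured on 18 one-colour Affymetrix Arabidopsis Genome arrays. The deposited values are on the log2 scale, made by the authors with GCRMA per the submitters' processing notes (version, build and annotation not given in the sources used here), which corrects background, equalises arrays and summarises probe sets. Values near the lowest, 2.11, depend on that background step. Arrays have no read depth; their number limits the precision. Of 22810 probe sets, 64 controls were left out. The annotation listed 14016 of 22746: 13513 named 1 gene, 503 several, and 8730 were not listed; 13436 symbols came from RefSeq's gene table of TAIR10.1.

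A model with a mean per group was fitted, over the 18 arrays together, by limma 3.58.1 under R 4.3.3 (lmFit, eBayes, two-sided, Benjamini-Hochberg over all probe sets). Changes and levels are on the log2 scale, with SE from the fit. The difference between genotypes was the mean over both oxygen levels. Figures used Python 3.11.15 and matplotlib 3.10.9. On simulated data (22746 probe sets, 200 changed, HA-RAP2.12 minus WT) the fit recovered 26% of log2 changes of 0.3, 36% of 0.5, 88% of 1 and 98% of 2, with 6 false calls. The simulated noise was independent, with the same SD on all arrays for a given probe set. The real arrays had weights of 0.13 to 2.67, and those of 1 genotype and number deviated together. The simulated shares need not hold for them.

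The probe sets, gene lists and tests were chosen with earlier results of these data known. All 11 of the 29 with 1 gene name are named, with up to 3 genes per list by WT change where given; others are said to be chosen after their values were seen. Alternatives were quantile normalization, median centring, a filter on dim probe sets, removal of probe sets ending in _s_at or _x_at, trended robust and array-weighted fits, only the arrays compared, a replicate block, fixed or random within genotype, a minimum difference, other limits and leaving out each array. The 27 alternatives given for single probe sets leave out the minimum difference and the other limits. Promoter motifs were planned and not analysed here.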

Additional observations from a re-analysis of the deposited data

How the results depend on the processing

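Over all probe sets, the averaged genotype comparisons called 572 (HA-RAP2.12 minus WT), 131 (amiRAP2.2-12 minus WT) and 169 (HA-RAP2.12 minus amiRAP2.2-12). These counts were 2810, 1549 and 551 with arrayWeights, 1467, 86 and 24 with only the arrays compared, and 64, 32 and 37 with a difference of at least 1. The count for amiRAP2.2-12 was 208 after dim probe sets were filtered out, and 82 with the replicate block. With that block AER and 247351_at in HA-RAP2.12, and AT1G17860 and 247351_at in amiRAP2.2-12, were not called. Samples of the same number deviated together (r over 0.1) in 8 of 45 pairs, with 2 among 36 across genotypes. The other 6 were among the 9 of air and hypoxia in 1 genotype, where r was above 0 in all 9. The main fit took all arrays as independent, so its p-values do not allow for this link within a genotype. With the random block within genotype, added after the data were seen, 410, 83 and 95 were called. Leaving out 1 array gave 282 to 1089 (lowest without HA-RAP2.12 hypoxia replicate 3, highest without amiRAP2.2-12 hypoxia replicate 2), 53 to 483 (WT air replicate 3, amiRAP2.2-12 hypoxia replicate 1) and 65 to 279 (HA-RAP2.12 hypoxia replicate 3, amiRAP2.2-12 hypoxia replicate 1). Of the 29, lower calls in HA-RAP2.12 numbered 4 to 11 without 1 array and 2 at a difference of at least 1, and in amiRAP2.2-12 2 to 8 and 1, with 11 by arrayWeights and 2 with only the arrays compared. The rule found 23 to 38 without 1 array, 34 after quantile normalization and 37 after median centring (all 29 kept in both), 20 and 36 with gaps up to 0.4 and 0.6, 38 and 24 with rises of at least 1.4 and 1.6, and 30 and 28 with WT air of at least 3 and 5. Some differences near 0 changed sign: AT3G46280 in HA-RAP2.12 after quantile normalization (-0.010) and with arrayWeights (-0.076), and, leaving out 1 array, AT3G46280 (-0.136 to 0.121) and IQD23 (-0.056 to 0.011) in HA-RAP2.12, and AT3G07090 (-0.082 to 0.050) and AT5G03490 (-0.156 to 0.060) in amiRAP2.2-12. Median centring shifted array medians by up to 0.15 and raised the share of higher calls for hypoxia in amiRAP2.2-12 to 63.2%, against 49.3% with the deposited values. The causes were not tested. Hypoxia counts, and counts of the 29, under alternatives were added after the data were seen.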
